A study of Mus musculus with 7 samples.

Results

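The 9 genes described here are 6 HOX genes (Hoxa5, Hoxa7, Hoxa9, Hoxa10, Hoxb4 and Hoxb5) and 3 genes that work with them, Meis1, Pbx3 and Mllt3. They were chosen by name, all 9 were found, and they stand among 28987 genes listed in the deposited table, of which 22784 were above 0 in a library. RNA sequencing measured their transcripts in 7 libraries of bone marrow cells from C57BL/6 mice. In 3 libraries the cells were stem and progenitor cells (HSC/P), enriched by positive selection for CD117 and sorted for the mutant clone, and in the other 4 they were sorted Ly6G+ myeloid cells. The HSC/P groups were HMGA2-OE (overexpression of HMGA2, 1 library) and RUNX1 mutant with HMGA2-OE (RUNX1mut/HMGA2-OE, called the combined genotype, 2 libraries, the combined pair), so every HSC/P library carries HMGA2-OE. The Ly6G+ groups were Control, RUNX1 mutant (RUNX1mut), HMGA2-OE and RUNX1mut/HMGA2-OE, with 1 library each. The age of the mice, the RUNX1 allele, the way HMGA2 was overexpressed and the marker of the sorted clone were not given in the sources used here. Marrow was taken from individual mice, but nothing says that HSC/P and Ly6G+ libraries of a genotype came from different animals.

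HOX genes encode transcription factors with a homeodomain and lie in 4 clusters, in which neighbouring genes are often active together. In blood the A cluster genes around Hoxa9 and the B cluster genes around Hoxb4 are active in stem and progenitor cells and are switched off as granulocytes mature. MEIS1 and PBX3 are TALE homeodomain proteins that bind DNA together with HOX proteins, and MLLT3 (AF9) is a reader of acetylated histones in the super elongation complex that helps to keep stem cell genes transcribed. Meis1 and Hoxa9 are best known as a pair from leukaemias with MLL rearrangements.

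The promoters of 3 of the genes are shown as examples of different RNA patterns, not as the largest contrasts. Meis1 was highest in libraries with the RUNX1 mutation within each cell type, Hoxb4 was high in HSC/P libraries, and Hoxa9 was high in HSC/P and in 1 Ly6G+ library. Each is the 250 bases before the start site in the RefSeq annotation of GRCm38.p6, on the strand of the gene, and RefSeq promoters were matched for 7 of the 9 genes. Capitals mark a match to the RUNX motif TGTGGT, the MEIS motif TGACAG or the PBX-HOX motif TGATTNAT, searched on both strands. No motif overlapped another. The Meis1 sequence is chr11:19018970-19019219 on the minus strand, and its last bases lie in an exon of the GENCODE model. The Hoxa9 sequence is chr6:52227371-52227620, minus strand, and the Hoxb4 sequence chr11:96318017-96318266, plus strand.
Meis1: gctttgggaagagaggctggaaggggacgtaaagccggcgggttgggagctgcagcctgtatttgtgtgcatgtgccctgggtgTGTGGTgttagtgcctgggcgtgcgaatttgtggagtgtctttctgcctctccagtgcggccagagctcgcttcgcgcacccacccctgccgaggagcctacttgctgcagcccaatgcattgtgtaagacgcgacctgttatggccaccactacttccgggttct
Hoxa9: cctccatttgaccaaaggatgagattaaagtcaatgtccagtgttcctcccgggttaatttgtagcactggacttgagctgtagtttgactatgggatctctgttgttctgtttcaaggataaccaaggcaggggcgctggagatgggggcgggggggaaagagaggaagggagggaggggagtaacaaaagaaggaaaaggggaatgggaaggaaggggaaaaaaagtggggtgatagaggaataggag
Hoxb4: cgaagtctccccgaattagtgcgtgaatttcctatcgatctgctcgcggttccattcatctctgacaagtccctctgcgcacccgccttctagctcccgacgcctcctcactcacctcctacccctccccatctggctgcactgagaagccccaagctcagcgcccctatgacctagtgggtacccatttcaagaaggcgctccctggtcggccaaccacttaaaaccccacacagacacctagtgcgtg
The RUNX letters begin 166 bases before the start site of Meis1 and are in 14.0% of the 32851 promoter windows of this length. In the 9 windows of the 7 matched genes they occurred only at Meis1. The MEIS letters, which 15.9% of all windows hold, were in a single window, the downstream start site of Mllt3, and the PBX-HOX letters (2.82% of windows) in none of them. These matches describe letters in a short window and say nothing of binding.

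Library labels were checked before use. Hmga2 was at 1.45 and 1.36 TPM in the Ly6G+ libraries without HMGA2-OE and at 3.72 and 12.1 TPM in those with it, and at 138 to 176 TPM in HSC/P libraries. Runx1 was at 3.36 and 3.85 TPM in Ly6G+ libraries without the mutation against 11.6 and 21.2 TPM with it, and at 18.9 against 219 and 225 TPM in HSC/P. TPM (a length-normalized share of transcripts) summed to between 896820 and 993009 over the listed genes, and the depth per library is unknown. All 10 neutrophil markers reached 1 TPM in every library, with summed levels of 17694 to 61411 TPM in HSC/P and 287745 to 668946 TPM in Ly6G+ libraries. Of 9 stem and progenitor markers 8 or 9 reached 1 TPM in HSC/P libraries (sums of 189 to 755 TPM) and 1 to 6 in Ly6G+ libraries (6.14 to 25.9 TPM). Because neutrophil transcripts, chiefly S100a8 and S100a9, took so much of the Ly6G+ RNA, tests used TPM scaled by a trimmed mean of log ratios. Log2 differences below are on the scale log2(scaled TPM + 1), which understates those of low genes, and ± is the standard error of the fit. In these bulk samples fewer cells that express a gene and less RNA per cell cannot be told apart.

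The first comparison asked how the genes differed between progenitors and mature myeloid cells, in the 5 libraries with HMGA2-OE. Meis1, Mllt3, Hoxa5, Hoxa7, Hoxb4 and Pbx3 were called higher in HSC/P than in Ly6G+ cells. Hoxa9 and Hoxa10 did not pass the test and Hoxb5 was too low to be tested. In limma, 6 of the 8 tested genes were higher at adjusted p below 0.05 and 0 were lower, and among all 12686 genes tested 35.9% were higher and 35.7% lower, 71.5% in all. Their median difference was 1.36, against 0.10 over all genes. The HSC/P libraries, where the 8 genes are high, were enough for each to pass the filter (1 TPM in at least 2 libraries). None of the 8 reached 1 TPM in both Ly6G+ libraries with HMGA2-OE. This count, this median and the p-values of the 8 genes below therefore describe them and are not support for a difference. The split of all calls depended on the scaling, with 50.1% of calls higher in HSC/P, 63.0% with upper-quartile scaling and 86.1% without scaling, and the direction of the 8 genes was the same under each. The spread comes from the combined pair, with 1 residual degree of freedom moderated across genes, and the other groups are assumed to vary like it. With a library left out that fit has no residual degree of freedom, so cell type values with a library left out come from a fit without the interaction (additive) and are set beside the additive fit to all 5 libraries.

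Mllt3 (ENSMUSG00000028496, mm10 chromosome 4, 87769925 to 88033364, minus strand) had 32.0 TPM with HMGA2-OE and 23.2 and 23.1 TPM in the combined pair. Its Ly6G+ levels were 0.0846 (Control), 0.545 (RUNX1mut), 0.199 (HMGA2-OE) and 1.29 TPM (combined). Its lowest HSC/P value was thus 17.8 times its highest Ly6G+ value, and the fitted difference of 2.93 ± 0.12 on the log2 scale (limma adjusted p = 0.00218) was the largest of the 8.

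Meis1 (ENSMUSG00000020160, mm10 chromosome 11, 18879817 to 19018985, minus strand) had 11.3 TPM with HMGA2-OE and 67.2 and 93.2 TPM in the combined pair. Its Ly6G+ levels were 0.308 (Control), 1.98 (RUNX1mut), 0.413 (HMGA2-OE) and 2.91 TPM (combined). The cell types did not overlap, and Meis1 was higher in HSC/P by 2.39 ± 0.20 (limma adjusted p = 0.00451). Within each cell type the libraries with the RUNX1 mutation held the highest values.

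**Figure D1:**
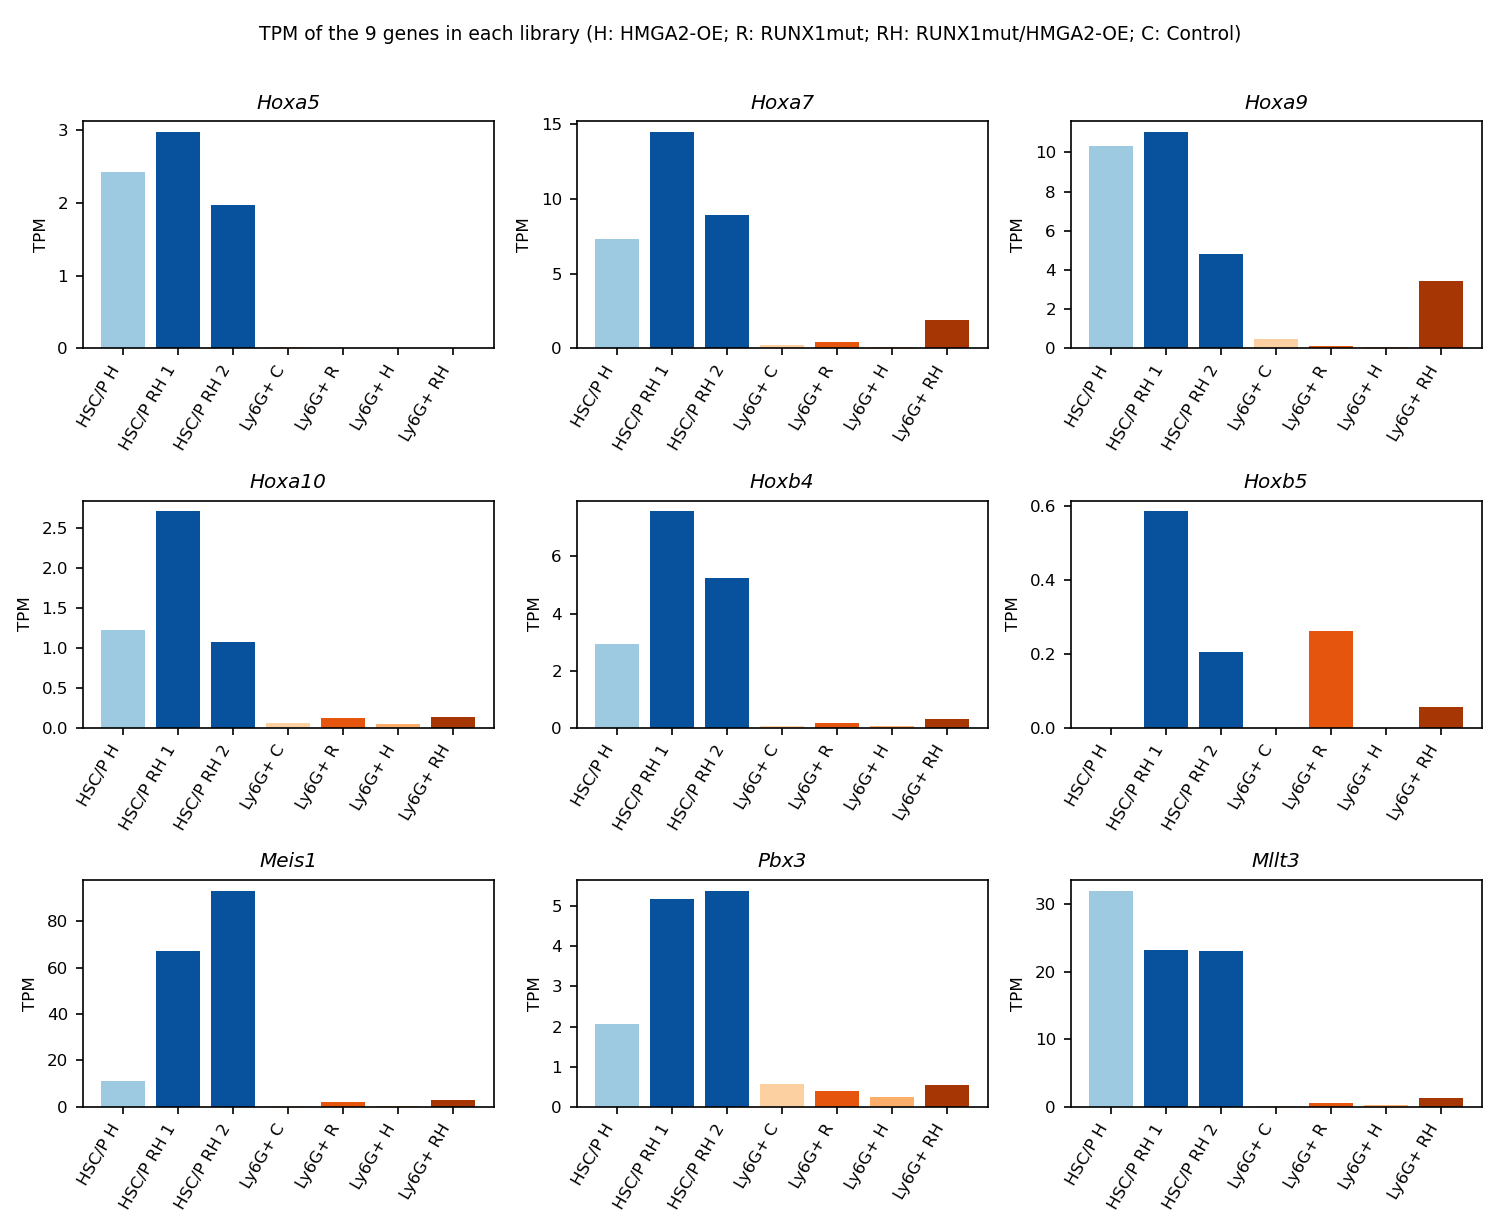
TPM (vertical axis, linear, from 0) of each of the 9 genes in the 7 libraries, 1 bar per library, blue for HSC/P and orange for Ly6G+. Meis1 stands at 67.2 and 93.2 TPM in the combined pair against 11.3 TPM in HMGA2-OE, and Hoxa9 is the gene whose combined Ly6G+ bar (3.46 TPM) comes nearest to the HSC/P bars, Hoxb5 apart.

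Of the A cluster genes on chromosome 6, Hoxa5 (ENSMUSG00000038253, 52201754 to 52204587, minus strand) had 2.43 TPM with HMGA2-OE and 2.97 and 1.97 TPM in the combined pair. Its Ly6G+ level was 0.0239 TPM for Control, and it was listed at 0 in the other 3 libraries. The groups did not overlap, and Hoxa5 was higher in HSC/P by 1.28 ± 0.21 (limma adjusted p = 0.0169). Hoxa7 (ENSMUSG00000038236, 52214491 to 52221854, minus strand) was at 7.36, 14.5 and 8.94 TPM in the same 3 HSC/P libraries. Its Ly6G+ levels were 0.242 (Control), 0.400 (RUNX1mut), 0.121 (HMGA2-OE) and 1.93 TPM (combined). The groups did not overlap and Hoxa7 was higher in HSC/P by 1.45 ± 0.27 (limma adjusted p = 0.0227). The additive fit to the 5 libraries gave 1.37 ± 0.36 (limma adjusted p = 0.0286), and the additive fit without combined replicate 1 gave 1.21 ± 0.43 (limma adjusted p = 0.0866).

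Hoxa9 (ENSMUSG00000038227, 52223100 to 52231089, minus strand), the HOX gene most studied in myeloid leukaemia, had 10.3 TPM with HMGA2-OE and 11.0 and 4.84 TPM in the combined pair. Its Ly6G+ levels were 0.464 (Control), 0.136 (RUNX1mut), 0.0790 (HMGA2-OE) and 3.46 TPM (combined), the last far above the other 3. In TPM the cell types did not overlap, but after scaling over all 7 libraries they did: the combined Ly6G+ library stood at 3.95 and replicate 2 of the combined pair at 1.98. The difference of 1.14 ± 0.40 had a limma adjusted p of 0.0841. The additive fit to the 5 libraries gave 0.94 ± 0.75 (limma adjusted p = 0.321), and the same fit without the combined Ly6G+ library, a setting chosen after seeing the data, 2.60 ± 0.58 (limma adjusted p = 0.0292). Without scaling the difference was 2.15 ± 0.42 (limma adjusted p = 0.0192).

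Hoxa10 (ENSMUSG00000000938, 52231197 to 52240854, minus strand), the next gene along, was low throughout, at 1.22, 2.70 and 1.07 TPM in HSC/P and 0.0421 to 0.132 TPM in Ly6G+ cells. The groups did not overlap, and the difference of 0.68 ± 0.30 did not pass (limma adjusted p = 0.137).

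On chromosome 11, Hoxb4 (ENSMUSG00000038692, 96318267 to 96321638, plus strand), which expands stem cells when overexpressed, had 2.92 TPM with HMGA2-OE and 7.58 and 5.24 TPM in the combined pair. Its Ly6G+ levels were 0.0477 (Control), 0.169 (RUNX1mut), 0.0448 (HMGA2-OE) and 0.307 TPM (combined). Hoxb4 was higher in HSC/P by 1.46 ± 0.22 (limma adjusted p = 0.0145). Hoxb5 (ENSMUSG00000038700, 96303336 to 96306121, plus strand), a marker of long-term stem cells in mice, did not reach 1 TPM anywhere. It was listed at 0 in HMGA2-OE HSC/P and in the Control and HMGA2-OE Ly6G+ libraries, and was at 0.585 and 0.205 TPM in the combined pair, 0.261 TPM in RUNX1mut Ly6G+ and 0.0565 TPM in combined Ly6G+ cells. All 4 libraries in which it was above 0 carry the RUNX1 mutation.

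Pbx3 (ENSMUSG00000038718, mm10 chromosome 2, 34171457 to 34373142, minus strand) had 2.07 TPM with HMGA2-OE and 5.18 and 5.39 TPM in the combined pair. Its Ly6G+ levels were 0.562 (Control), 0.392 (RUNX1mut), 0.233 (HMGA2-OE) and 0.538 TPM (combined). It rose by 0.73 ± 0.14 (limma adjusted p = 0.0256), the weakest of the 6 calls. After scaling over all 7 libraries the groups overlapped, with 1.20 in Control Ly6G+ against 1.002 in HMGA2-OE HSC/P. The call was lost in the additive fit to the 5 libraries (0.79 ± 0.27, limma adjusted p = 0.0586) and to all 7 libraries (0.0677). Additive fits without combined replicate 1 (limma adjusted p = 0.149), replicate 2 (0.142) or the combined Ly6G+ library (0.370) did not call it either.

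Without the filter on low values the adjusted p in limma was 0.0561 for Hoxa5, 0.0873 for Hoxa7 and 0.0602 for Hoxb4, so these 3 calls rest on it, although the differences were then 1.36, 1.65 and 1.59, no smaller than with the filter.

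Over all 9 genes, 6 had every HSC/P library above every Ly6G+ library after scaling, the exceptions being Hoxa9, Hoxb5 and Pbx3, and 35.1% of 12881 genes did so. Without scaling it was 8 of the 9 and 66.5% of genes. The 12881 genes, here and below, are those that reached 1 TPM in at least 2 of the 7 libraries. Hoxb5 reached it in 0 and is not among them.

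**Figure D2:**
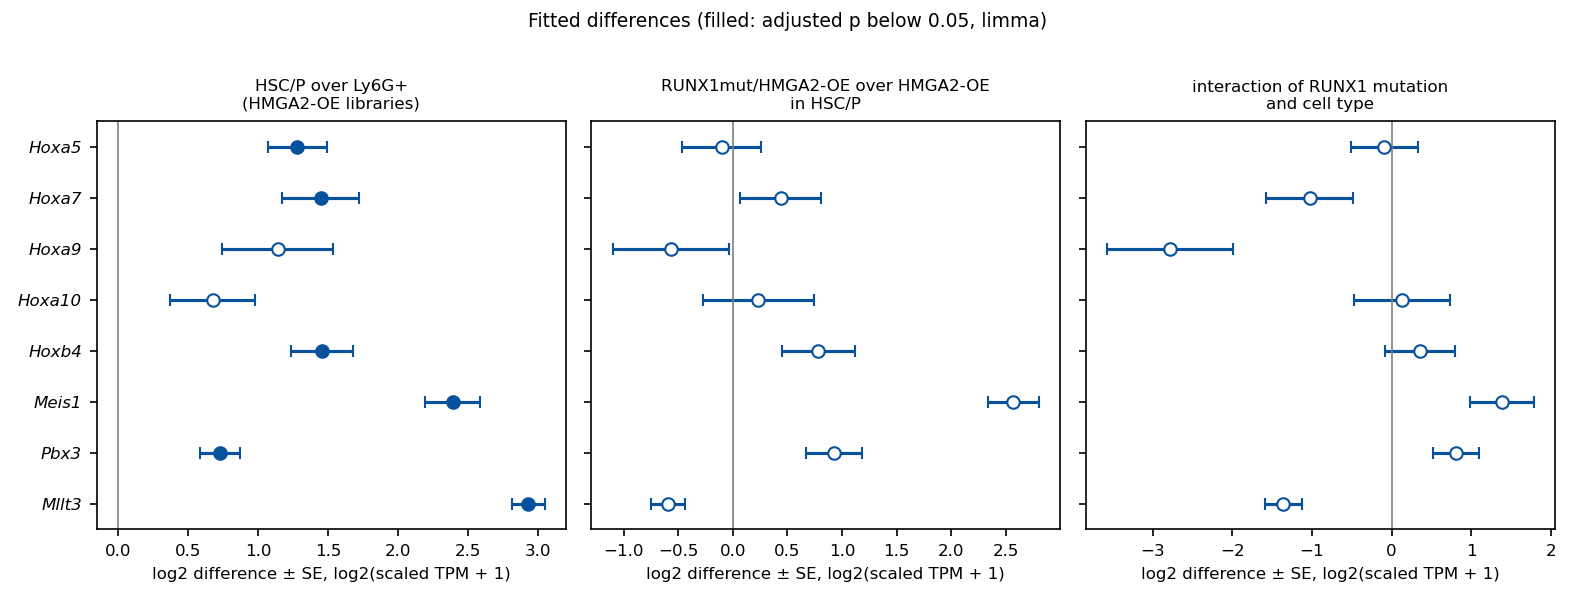
Fitted log2 differences (horizontal axis, log2(scaled TPM + 1), bars ± 1 SE) of the 8 tested genes for HSC/P over Ly6G+ cells, for the RUNX1 mutation in HMGA2-OE HSC/P, and for the interaction of mutation and cell type. Filled points passed an adjusted p of 0.05 in limma, which 6 genes did between cell types and 0 in the other panels, where Meis1 had the highest value for the mutation in HSC/P (2.57) and Hoxa9 the lowest interaction value (-2.78).

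The levels of the 9 genes can be ordered within a library, since TPM is per length. In HMGA2-OE HSC/P Mllt3 led, making up 46.0% of the 69.6 TPM summed over the 9, followed by Meis1 (16.2%), Hoxa9 and Hoxa7, and Meis1 and Hoxa9 differed by little (a ratio of 1.09). In the combined pair Meis1 led, with 49.8% and 64.7% of sums of 135 and 144 TPM, and the ratio of Meis1 to Hoxa9 was 6.09 and 19.3. Mllt3 stood next at 17.2% and 16.0%, followed by Hoxa7. The pair did not share an order below Hoxa7, where Hoxa9 and Pbx3 changed places. In Ly6G+ cells the 9 genes summed to 1.79 (Control), 4.002 (RUNX1mut), 1.13 (HMGA2-OE) and 10.6 TPM (combined), and the leading gene was Pbx3, Meis1, Meis1 and Hoxa9 in that order of libraries.

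The HOX signal in HSC/P libraries came from the middle of the A cluster and from Hoxb3 and Hoxb4. Of 38 HOX genes listed, 6 to 9 reached 1 TPM in an HSC/P library, 0 in the Control, RUNX1mut and HMGA2-OE Ly6G+ libraries, and 3 in combined Ly6G+ cells (Hoxa7, Hoxa9 and Hoxb3). The A cluster summed to 24.9 TPM in HMGA2-OE HSC/P and to 35.4 and 19.7 TPM in the pair. The B cluster summed to 4.19 against 16.4 and 7.86 TPM. The C cluster summed to at most 1.13 TPM and the D cluster to at most 0.106 TPM in any of the 7 libraries, and no gene of theirs reached 1 TPM. The 6 HOX genes of the set held 75.04% to 81.8% of all HOX TPM in HSC/P libraries.

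In the A cluster the genes next to the set were lower than its members: Hoxa3 was at 0.846, 1.19 and 1.01 TPM, Hoxa4 at 0.896, 0.578 and 0.547 TPM and Hoxa6 at 1.12, 1.61 and 1.03 TPM in HSC/P, while Hoxa11 was listed at 0 in all 3 libraries. Hoxb3, beside Hoxb4, had 0.877 TPM with HMGA2-OE, 5.44 and 1.88 TPM in the pair and 1.82 TPM in combined Ly6G+ cells. So in that Ly6G+ library Hoxa7, Hoxa9 and Hoxb3 stood out, while Hoxa5 and Hoxa6 were listed at 0 and Hoxa10 was at 0.132 TPM.

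**Figure D3:**
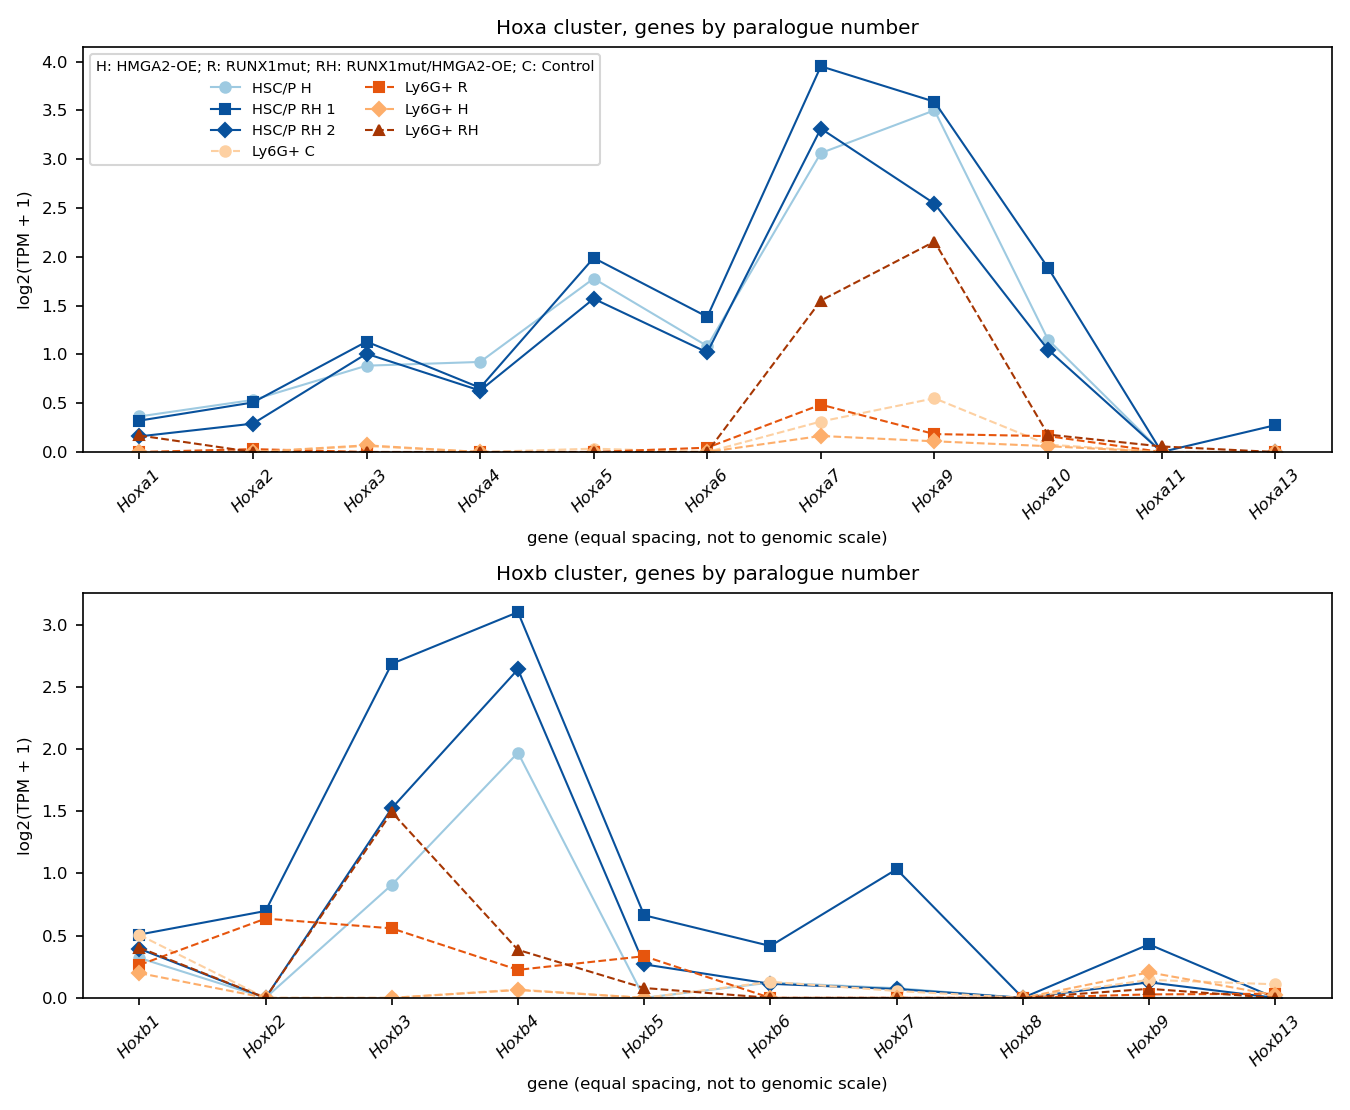
Level of every A and B cluster HOX gene on the scale log2(TPM + 1) (vertical axis), in order of paralogue number (horizontal axis, equal spacing), 1 line per library, solid for HSC/P and dashed for Ly6G+. HSC/P lines peak at Hoxa7 and Hoxa9 and at Hoxb4, and the combined Ly6G+ line rises at Hoxa7 (1.93 TPM), Hoxa9 (3.46 TPM) and Hoxb3 (1.82 TPM).

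Several of these values share sequence with neighbours. Exons of Hoxa7 overlap the antisense RNA Hoxaas3 (3.74, 5.01 and 5.21 TPM in HSC/P, at most 0.545 TPM in Ly6G+ cells), those of Hoxb5 overlap Hoxb5os, and an exon of Hoxa9 covers the microRNA gene Mir196b. Exons of Meis1 overlap the antisense Gm16140, which was at 3.496 and 3.64 TPM in the combined pair and listed at 0 in the other 5 libraries. Whether the library kept strand was not given in the sources used here, so reads of a gene and its antisense partner cannot be told apart.

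The combined pair was then set against the HMGA2-OE library of HSC/P, 2 libraries against 1, which addresses the RUNX1 mutation on top of HMGA2-OE. Meis1 had 67.2 and 93.2 TPM against 11.3 TPM, the HOX genes showed no common shift, and Mllt3 was lower in both mutant libraries. No gene of the set passed: limma called 0 of 8, and 0 of 12226 genes in all, which is 0.0% (1894, or 15.5%, had an unadjusted p under 0.05, among them Meis1, Pbx3 and Mllt3). On simulated data this fit recovered 1.3% of 2-fold and 66% of 4-fold changes, so the lack of calls says little of 2-fold changes. Those changes were put only into genes of higher mean level. The shares do not hold for the lower genes of the set, such as Hoxa5, Hoxa10, Hoxb4 and Pbx3. Meis1 differed by 2.57 ± 0.24 (limma adjusted p = 0.114, and 0.0642 to 0.368 under the other settings), rank 67 of all genes by p. Pbx3 differed by 0.93 ± 0.26 (limma adjusted p = 0.265) and Mllt3 by -0.59 ± 0.16 (limma adjusted p = 0.250). Both replicates of the pair gave these differences, at 2.35 and 2.79 for Meis1, 0.91 and 0.94 for Pbx3 and -0.57 and -0.61 for Mllt3.

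The replicates of the pair differed from each other for the HOX genes. Replicate 1 exceeded replicate 2 for all 6, by TPM of 14.5 against 8.94 for Hoxa7, 11.0 against 4.84 for Hoxa9 and 2.70 against 1.07 for Hoxa10. Hoxb4 differed from HMGA2-OE by 0.78 ± 0.33 and Hoxa7 by 0.44 ± 0.37, and Hoxa9 by -0.57 ± 0.53. Hoxa5 (-0.10 ± 0.36) and Hoxa10 (0.23 ± 0.51) lay within their errors, and their sign depended on which replicate was kept. With 1 replicate kept, Hoxa9 ranged from -1.09 to -0.029 and Hoxa7 from 0.11 to 0.77. Over the 8 genes the median was 0.34, against -0.0012 over all genes. Hoxa7, Hoxb4, Hoxb5, Meis1 and Pbx3 were higher in both mutant libraries than in HMGA2-OE after scaling, as were 32.3% of 12881 genes, and Hoxa9 and Mllt3 were lower in both, as were 45.9%. Those 12881 genes do not include Hoxb5.

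Cell type markers also differed between these HSC/P libraries. The 9 stem and progenitor markers summed to 189 TPM in HMGA2-OE and 755 and 665 TPM in the pair, with Cd34 at 35.8 against 239 and 157 TPM and Hlf at 4.48 against 31.9 and 20.5 TPM. The 8 megakaryocyte markers, of a lineage that also expresses Meis1, summed to 443 against 850 and 2263 TPM, with Itga2b at 22.5 against 313 and 640 TPM. The erythroid markers summed to 1786 against 732 and 1267 TPM, the mast and basophil markers to 35.1 against 234 and 262 TPM, the monocyte and macrophage markers to 858 against 371 and 290 TPM, and the neutrophil markers to 61411 against 17694 and 18436 TPM. Ly6c2 was the largest part of the monocyte and macrophage sum (715 against 182 and 176 TPM). The rest of that list did not move together, with Csf1r at 15.8 against 42.6 and 18.5 TPM and C1qa at 42.7 against 33.6 and 26.6 TPM. The part of these cell markers in the Meis1 difference was not tested.

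In Ly6G+ cells each genotype had 1 library. Meis1 was the only gene of the set above the filter there, and the 8 others are described by their values. It passed only through the 2 libraries with the mutation (1.98 and 2.91 TPM, against 0.308 and 0.413 TPM without it). Its RUNX1 term and p-value therefore describe it and are not support for a difference. The RUNX1 term of the additive fit was 0.98 ± 0.18 for Meis1 (limma adjusted p = 0.331, unadjusted p = 0.0166) and the HMGA2-OE term 0.10 ± 0.18 (limma adjusted p = 0.892). For the RUNX1 term limma called 0.0% of 9820 genes, while 1407 (14.3%) had p under 0.05 before adjustment, and for the HMGA2-OE term 0.0%, while 639 (6.51%) had. On simulated data the RUNX1 term recovered 0% of 2-fold and 8.7% of 4-fold changes, and the HMGA2-OE term 0.7% and 6%. The lack of calls thus says little of changes of that size. Those changes, too, were put only into genes of higher mean level than Meis1 had here, so the shares do not hold for it. After scaling among these 4 libraries Meis1 stood at 0.349 (Control) and 0.607 (HMGA2-OE), and at 1.92 (RUNX1mut) and 1.805 (combined). The mutant libraries were thus about equal and above both others, and no group was replicated, so the fit's error is its departure from additivity.

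Mllt3 showed a like order, with scaled values of 0.0956 (Control) and 0.292 (HMGA2-OE), and of 0.529 (RUNX1mut) and 0.803 (combined). Over the 9 genes, 6 had both mutant Ly6G+ libraries above both others after scaling over all 7 libraries, against 22.9% of 12881 genes. Those 12881 genes do not include Hoxb5. The 6 were Hoxa7, Hoxa10, Hoxb4, Hoxb5, Meis1 and Mllt3. Of these, Hoxa10, Hoxb4 and Hoxb5 were under 1 TPM in all 4 Ly6G+ libraries, and Hoxa7 and Mllt3 in all but the combined one. Such low values give no firm order. Hoxa7, Hoxb4, Hoxb5 and Meis1 were listed higher with the mutation in both cell types, as were 7.83% of the 12881 genes. The same limits hold for that comparison.

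Hoxa9 did not follow that order. Its scaled values were 0.525 (Control), 0.132 (RUNX1mut), 0.116 (HMGA2-OE) and 2.14 (combined). Set against the HMGA2-OE library it was the only gene of the 9 at least 2-fold higher in the combined genotype on the log2(scaled TPM + 1) scale, with a log2 ratio of 1.49, and 4.11% of 12881 genes were. Against RUNX1mut the log2 ratio was 1.47, a 2-fold difference that 3.49% of genes showed. Hoxa7 came next, at 0.90 and 0.66, from scaled values of 0.177 in HMGA2-OE and 0.388 in RUNX1mut to 1.20. These ratios compare single libraries and have no test.

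Progenitor markers differed between the same Ly6G+ libraries. The 9 stem and progenitor markers summed to 7.34 TPM (Control) and 6.14 (HMGA2-OE), and to 22.2 (RUNX1mut) and 25.9 (combined), with Cd34 at 0.268 and 0.858 against 7.10 and 7.61 TPM. In TPM before scaling Kit did not follow, at 5.20 and 3.43 against 3.72 and 4.43 TPM. The 4 promyelocyte markers summed to 57.4 and 102 against 466 and 419 TPM, with Mpo at 28.4 and 53.2 against 235 and 228 TPM. The 8 megakaryocyte markers summed to 4.58 and 5.37 against 46.9 and 64.8 TPM. The 8 B lymphoid markers summed to 21.7 and 15.5 against 71.8 and 63.4 TPM, and the 5 mast and basophil markers to 10.9 and 18.5 against 88.1 and 35.1 TPM. After scaling over all 7 libraries the stem and progenitor sums were 15.7 and 16.8 against 39.6 and 29.6. The mast and basophil sums were then 23.4 and 50.6 against 157 and 40.1, so the combined library was below HMGA2-OE. The scaled promyelocyte, megakaryocyte and B lymphoid sums stayed higher in both mutant libraries. The 7 monocyte and macrophage markers summed to 1470.5 and 1085 against 914 and 844 TPM, mostly Ly6c2 (1411 and 1033 against 788 and 663 TPM). Only Ly6c2 was lower with the mutation. The others were higher in both mutant libraries, with Csf1r at 33.7 and 27.9 against 55.4 and 74.5 TPM. Meis1 and Mllt3 were thus high in the libraries where most of these markers were high, and the part of the markers in the difference was not tested. Hoxa9 was at 0.136 TPM in RUNX1mut and 3.46 TPM in the combined genotype, and the part of the progenitor markers in that difference was not tested. The combined Ly6G+ library stood apart in other RNA: the 8 erythroid markers summed to 5551 TPM there against 65.7 to 254 TPM in the other 3, and S100a8 was at 30622 TPM against 398580 to 546267 TPM. Their part in the Hoxa9 difference was not tested. Of the 7 stromal and endothelial markers 1 or 2 reached 1 TPM in any library, and Cdh5 and Col1a2 stayed under that level in all 7.

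**Figure D4:**
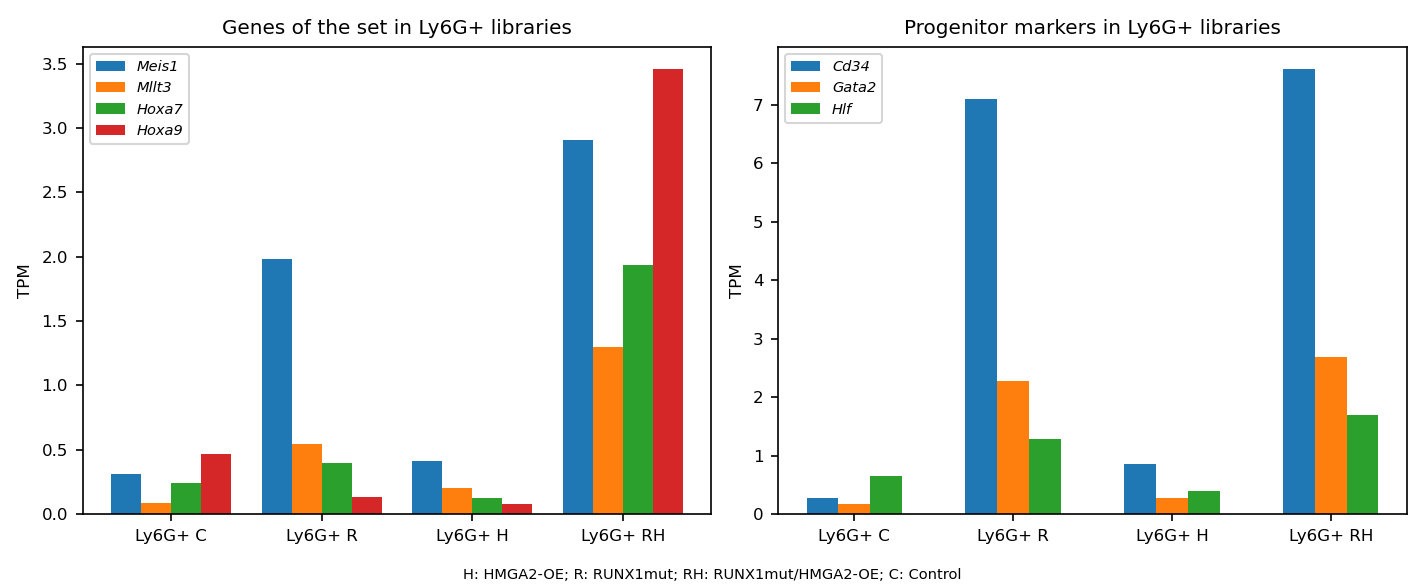
TPM (vertical axes, linear, from 0) of Meis1, Mllt3, Hoxa7 and Hoxa9 (left) and of the progenitor markers Cd34, Gata2 and Hlf (right) in the 4 Ly6G+ libraries, 1 bar per gene and library. Meis1 and the markers shown are higher in both libraries with the RUNX1 mutation, while Hoxa9 is at 0.136 TPM in RUNX1mut and 3.46 TPM in the combined genotype. Kit, a progenitor marker not shown, is not higher in both.

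Whether the effect of the mutation on HMGA2-OE differed between the cell types was fitted as an interaction in the 5 libraries, where a positive value means a larger effect in HSC/P. Limma called 0 of the 8 genes and 0 of 12686 genes (0.0%), while 2297 (18.1%) had p under 0.05 before adjustment. On simulated data this fit had too little power to call changed genes, so the count of 0 says nothing of whether the effects differed. Hoxa9 had the value largest in size, -2.78 ± 0.79 (unadjusted p = 0.0407, limma adjusted p = 0.257). Mllt3 had -1.36 ± 0.23 (unadjusted p = 0.0104, limma adjusted p = 0.178). Meis1 had 1.39 ± 0.40 (unadjusted p = 0.0409, limma adjusted p = 0.257) and Pbx3 0.81 ± 0.29 (limma adjusted p = 0.308). The genes thus split 4 against 4 in sign, with a median of 0.02.

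Lists of related genes are described by counts and medians, to be read against the 35.9% of all genes higher and 35.7% lower in HSC/P and their median of 0.10. In the Ly6G+ libraries alone 5 of the 7 tested TALE partners, 25 of the 30 chromatin genes and 17 of the 27 tested targets passed the filter. The rest needed an HSC/P library to pass, as did the tested HOX genes and non-coding RNAs of these lists. These counts and medians, and the p-values of such genes between cell types, therefore support no difference.

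Of the other TALE partners, 7 of 10 were tested between cell types and 4 were higher and 2 lower in HSC/P (limma, adjusted p below 0.05), with a median of 1.12. Pbx2 was at 50.4, 55.5 and 64.0 TPM in HSC/P against 2.96 to 7.69 TPM in Ly6G+ cells (1.48 ± 0.12, limma adjusted p = 0.00409), far above Pbx3 in TPM in every HSC/P library. Pbx4 was at 13.9, 20.6 and 15.2 TPM against 0.202 to 1.19 TPM (1.58 ± 0.20, limma adjusted p = 0.00993). Tgif1, a TALE repressor, was higher by 1.12 ± 0.21 (limma adjusted p = 0.0235). Pbxip1, whose product binds PBX proteins and keeps them from DNA, fell in HSC/P (a log2 difference of -4.22 ± 0.11, limma adjusted p = 0.00201), with 13.0 to 27.0 TPM against 62.1 to 145 TPM in Ly6G+ cells. Pknox1 passed as lower after scaling (-2.03 ± 0.16, limma adjusted p = 0.00427), but its TPM overlapped, at 10.9 to 15.2 in HSC/P and 9.61 to 20.1 in Ly6G+ cells, and without scaling the adjusted p was 0.362 in limma. Without scaling 5 of the 7 were higher and 1 lower. Meis2 and Meis3 stayed under 1 TPM in all 7 libraries.

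Genes of MLL complexes and other chromatin partners gave a split that depended on the scaling. Of the 30, all tested, 14 were higher and 9 lower in HSC/P at adjusted p below 0.05 in limma (median 0.15), 17 and 6 with upper-quartile scaling, and 26 and 1 without scaling. Ezh2, the methyltransferase of Polycomb, was higher under each scaling, at 107 to 123 TPM in HSC/P and 3.87 to 12.1 TPM in Ly6G+ cells (2.06 ± 0.09, limma adjusted p = 0.00225). So was Psip1, which tethers MLL and menin to chromatin, at 83.7 to 98.7 TPM against 6.95 to 17.4 TPM (1.09 ± 0.10, limma adjusted p = 0.00513), and Dpy30, a subunit of MLL complexes (0.61 ± 0.09, limma adjusted p = 0.0143). Cdk9, the kinase that releases paused polymerase, and Kat7, a histone acetyltransferase, had opposite signs with and without scaling (-1.10 and 0.84 for Cdk9, -0.49 and 1.41 for Kat7), so no direction is given for them. Men1, which encodes menin, was at 29.3 to 33.4 TPM in HSC/P and 9.94 to 10.6 TPM in 3 Ly6G+ libraries, but at 163 TPM in the combined Ly6G+ library, and its fitted difference of -2.31 ± 0.09 (limma adjusted p = 0.00219) contains that value. For the RUNX1 mutation in HSC/P, 0 of the 30 passed in either direction, with 2 higher and 1 lower at an unadjusted p under 0.05, which 15.5% of all genes had.

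Of 30 reported targets or co-regulators of HOX and MEIS proteins, 16 of 27 tested were higher and 5 lower in HSC/P (limma, adjusted p below 0.05), with a median of 1.63, and 22 were higher and 3 lower without scaling. Myb, a transcription factor of progenitors, was at 143 to 190 TPM against 3.98 to 12.7 TPM (2.44 ± 0.13, limma adjusted p = 0.00252). Gfi1b, which encodes a transcriptional repressor that acts in the erythroid and megakaryocytic lineages, was higher by 3.49 ± 0.30 (limma adjusted p = 0.00470). Myc was higher by 3.93 ± 0.12 (limma adjusted p = 0.00201). Id2, an inhibitor of E proteins, was lower (-3.80 ± 0.12, limma adjusted p = 0.00201). With the RUNX1 mutation in HSC/P 0 of 24 passed, and 9 were higher and 3 lower at an unadjusted p under 0.05 in limma, against 15.5% of all genes in either direction. There Cd34 differed by 2.26 ± 0.32 (limma adjusted p = 0.150), close to Meis1, while Myc differed by -0.77 ± 0.15 (limma adjusted p = 0.199) and Myb by 0.15 ± 0.17. The list holds Hmga2, Cd34 and Flt3, which were also used as checks above. Of 32 other HOX genes listed only Hoxb3 reached 5 TPM, 3 were tested and 1, Hoxa6, was higher in HSC/P (0.77 ± 0.20, limma adjusted p = 0.0449), and 0 were lower. Hoxb3 itself had 0.13 ± 0.41 (limma adjusted p = 0.788). Of 9 non-coding RNAs of the clusters that were listed, 3 were tested and 2 were higher in HSC/P, Hoxaas3 (1.21 ± 0.14, limma adjusted p = 0.00882) and Hoxb3os (1.08 ± 0.29, limma adjusted p = 0.0482).

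The genes most like each member were ranked by Pearson r over the 7 libraries, among 8695 genes that reached 10 TPM. These r describe a division into 3 HSC/P and 4 Ly6G+ libraries more than anything else: 1596 genes had an r above 0.95 with Mllt3 and 1234 with Hoxa5. Meis1 was matched by Pear1, a platelet receptor gene (r = 0.995, 11.4, 60.3 and 83.1 TPM in HSC/P and 0.0921 to 1.59 TPM in Ly6G+ cells), and by Ctla2b (r = 0.993). Both show its step between HMGA2-OE and the combined pair. Hoxb4 was matched by Scmh1, a Polycomb gene (r = 0.997), and Paxbp1 (0.993), Hoxa7 by Plpp5 (0.990) and Dmac2 (0.989), and Pbx3 by Mdfi (0.990) and Tatdn3 (0.981). Hoxa5 was matched by Wipf2 (0.999) and Lrp5 (0.998), Mllt3 by Ifrd2 (0.999) and Cct6a (0.999), and Hoxa10 by Tob2 and Rpp40 (both 0.968). Hoxa9 had the fewest like genes, with 2 above 0.95, Msl3 (0.955) and Cep295 (0.953). Among the members r was lowest between Hoxa9 and Pbx3 (0.400) and between Hoxa9 and Meis1 (0.518), and highest between Hoxa5 and Mllt3 (0.955). These correlations share libraries and the scaling, and no test was made of them.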

How the data were processed

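The submitters' table of 7 libraries has no header naming a unit. Its values, deposited by the authors, were taken as TPM because they are not whole numbers and columns have nearly equal sums. The submitters' processing notes name bcl2fastq, CASAVA 1.8, kallisto and mm10. Kallisto's version, its annotation and strand handling were not given in the sources used here. No read counts can be had from TPM, so depth and counting error are unknown. A symbol was found for 27458 of 28987 identifiers, and coordinates come from GENCODE M21.

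A gene entered a fit when 2 or more of its libraries reached 1 TPM. Scaling used a trimmed mean of log ratios without weights (trims of 0.3 and 0.05). Then limma 3.58.1 in R 4.3.3, with eBayes and a variance trend, was run on log2(scaled TPM + 1) for all genes, two-sided, with Benjamini-Hochberg adjustment over every gene tested at 0.05. Cell types and their interaction with the mutation were fitted in the 5 libraries with HMGA2-OE, the mutation alone in 3 HSC/P libraries, and both genotypes additively in 4 Ly6G+ libraries. Marrow came from individual mice, per the labels, which do not say that the 2 replicates are different mice, so p-values measure only the spread between these samples, which may be technical. Members, lists and tests were chosen with earlier results of these data known. Named from each other list were up to 6 genes that reached 5 TPM, by highest level, and for likeness the nearest 2 per member. Other names, such as Hoxa6, Hoxb3os, Meis2, single markers and cluster neighbours, were picked after their values were seen. Some genes of the lists enter only the counts and sums and are not reported here by name. The fit was tested on simulated data, with changes put only into genes of higher mean level. Other pseudocounts, filters, scalings, variance models and library sets were tried. Plots were made with matplotlib 3.10.9 in Python 3.11.15.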

Additional observations from a re-analysis of the deposited data

How the results depend on the processing

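No paired analysis was possible because the labels number only the 2 RUNX1mut/HMGA2-OE HSC/P libraries. Between cell types 6 genes of the set were called, and 3 without a filter on low values (Meis1, Pbx3 and Mllt3), where 22002 genes were tested. Other settings gave 4 to 7. The additive fit to the 5 libraries called 5, with Pbx3 out, and the additive fits that leave a library out are set against it: 4 without RUNX1mut/HMGA2-OE replicate 1, 5 without replicate 2, and 6, with Hoxa9 in, without the RUNX1mut/HMGA2-OE Ly6G+ library, a setting added after seeing the data. All genes called between cell types numbered 9074, and 8212 in the additive fit to the 5 libraries, against 6401 and 6692 in additive fits without replicate 1 or 2, which tested fewer genes. Without scaling 1 gene was called for the mutation in HSC/P, 133 for the RUNX1 term and 61 for the HMGA2-OE term in Ly6G+ cells, where the additive fit to all 7 libraries called 58 for HMGA2-OE, and the interaction called 3250 genes without a filter, each against 0; none was a gene of the set, and the cause was not tested. With 0.1 TPM added, 4 of the 9 genes were at least 2-fold higher in RUNX1mut/HMGA2-OE than HMGA2-OE Ly6G+ cells, against 1. Signs turned for values within their error: Hoxa5 was 0.0020 without scaling both in HSC/P and in the interaction, and Hoxb4 -0.18 in the interaction with 0.1 TPM added. Leaving out a replicate moved Hoxa5 between -0.31 and 0.12 in HSC/P and between -0.27 and 0.069 in the interaction, and Hoxa10 between -0.19 and 0.65 in HSC/P and between -0.20 and 0.42 in the interaction. Genes under 1 TPM, which include most of the set in Ly6G+ cells, allow no firm order of levels.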
